A study of Homo sapiens with 12 samples.

Results

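The subject of this section is how differently each gene responded in EW8 and in TC71, both Ewing sarcoma cell lines, when c-Jun and c-Fos were induced together. For every gene the log2 response of EW8 (doxycycline over vehicle) was subtracted from the log2 response of TC71, so that a positive difference is a larger response in TC71 and a negative one a larger response in EW8. Responses keep their sign, so a deeper fall in TC71 also counts as larger in EW8, and the reverse. All 12 RNA-seq libraries of the series entered a single fit with 4 groups of 3 libraries, and the difference was tested for 21013 of the 58721 genes in the count table. Both lines are labelled as wild type in genotype and were grown in the same serum-containing medium. In both, a lentiviral Tet-On 3G construct placed c-Jun and c-Fos, joined by a self-cleaving peptide, under a doxycycline-controlled promoter, and the vehicle groups carried this construct too. The 4 groups were EW8 with DMSO vehicle, EW8 with doxycycline, TC71 with vehicle and TC71 with doxycycline, the drug being given at 2000 ng/ml for 72 h. Cells given the drug but lacking the construct were not analysed here, so effects of doxycycline and of the induced proteins cannot be told apart. The labels do not state that the 3 libraries of a group came from separate cultures, and the p-values then measure only the spread between these libraries, which may be technical.

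Ewing sarcoma is a tumor of bone and soft tissue driven by a fusion of EWSR1 with an ETS gene, most often FLI1, and both lines are established models of it. AP-1 is a dimer of a Jun and a Fos protein, or of relatives such as the ATF and Maf proteins, that binds short DNA elements in promoters and, more often, in distal enhancers. Where it binds depends on which enhancers are already accessible in a cell and on partner factors such as NF-kB, ETS and TEAD proteins, and its best-known targets include matrix proteases, matrix and adhesion genes and inflammatory cytokines. EWS-FLI1 keeps many mesenchymal and matrix genes low in Ewing cells.

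Library totals ran from 42860665 to 60853649 counts, and levels are given in CPM, counts scaled to a library of fixed size. A group was taken to be at the floor for a gene when each of its 3 libraries held at most 6 counts, which is 3 read pairs because both mates were counted. Expressed as CPM the floor was 0.135 for EW8 vehicle, 0.137 for EW8 doxycycline, 0.116 for TC71 vehicle and 0.145 for TC71 doxycycline, and it covers counting error only. The 13 Ewing sarcoma markers summed to between 4670 and 6205 CPM in every library and none was at the floor in any group. The 20 leukocyte markers summed to 88.4 to 96.7 CPM in EW8 and 5.71 to 6.6 CPM in TC71, with CD2, CD3D, HBB and MS4A1 at 0 in all 4 groups. The first TC71 vehicle library stood apart from the other TC71 vehicle libraries: MT-ND1, a mitochondrially encoded respiratory subunit, was at 1250 CPM in it and at 424 and 432 CPM in the others. Because that library enters every difference, counts are also given below without it, and a named gene whose call or direction changed without it is marked as such. Whether a lower level in these bulk samples means fewer cells with the transcript or less of it per cell cannot be told apart.

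The induced genes were read first. In EW8, JUN went from 20.3, 24.6 and 19.8 CPM to 504, 495 and 422 CPM. The TC71 libraries held 18, 18.8 and 25.3 CPM under vehicle and 748, 814 and 705 CPM under doxycycline. Vehicle libraries overlapped between the lines, and all doxycycline libraries of TC71 lay above those of EW8. The difference of the JUN responses was 0.73 ± 0.15 on the log2 scale (SE, edgeR quasi-likelihood test, Benjamini-Hochberg adjusted p = 0.00217), short of the 2-fold limit. For FOS, which began lower in TC71 (11.2 to 12 CPM) than in EW8 (35.9 to 37.6 CPM) and ended higher (1450 to 1690 against 999 to 1140 CPM), the difference was 2.21 ± 0.09 (adjusted p = 6.41e-12). Transgene and endogenous reads were counted together, so the amount of each cannot be told apart.

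A gene was called when its adjusted p was under 0.05 and the difference exceeded 1 on the log2 scale, which is a 2-fold difference between the folds. By this rule 878 genes responded more in TC71 (4.18% of those tested) and 603 more in EW8 (2.87%), together 1481 genes or 7.05%. Each line's own response was called higher for 2401 genes (11.4%) and lower for 711 (3.38%) in EW8, and higher for 2583 (12.3%) and lower for 772 (3.67%) in TC71. The median difference over all tested genes was 0.03. Without the 2-fold limit 4057 genes (19.3%) differed, 2572 toward TC71 and 1485 toward EW8. That balance depended on scaling and on a library: it was 2015 against 2060 with upper-quartile scaling and 2071 against 3095 without the first TC71 vehicle library. With the 2-fold limit the counts without that library were 791 toward TC71 and 846 toward EW8, of which 697 and 582 were also called with it.

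Most called differences came from a gene that passed the test in a single line. Of the 878 genes with the larger value in TC71, 418 (47.61%) were called higher in TC71 and not called in EW8, and 259 (29.5%) were called higher in both. A further 83 were called lower in EW8 alone, 105 in neither line by itself, and 11 were called lower in EW8 and higher in TC71. Of the 603 genes with the larger value in EW8, 253 (41.96%) were called higher in EW8 alone, 137 (22.72%) higher in both, 110 lower in TC71 alone, 77 in neither line and 16 higher in EW8 and lower in TC71. A fold measured from a group at the floor depends on the statistical prior, so the genes with no group at the floor were also counted: 666 were larger in TC71 and 466 in EW8.

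**Figure D1:**
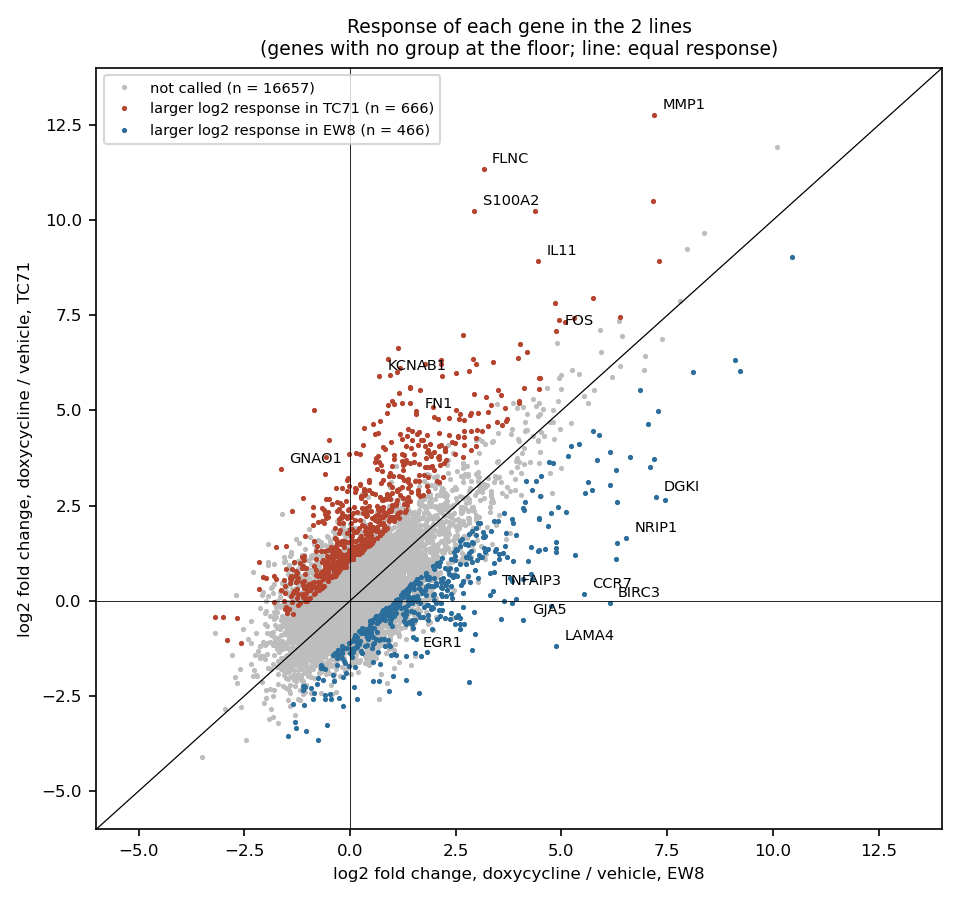
Log2 response to doxycycline in EW8 (x axis) against that in TC71 (y axis) for the 17789 tested genes with no group at the floor, one point per gene. Red points are the 666 genes called with the larger response in TC71 and blue points the 466 called with the larger response in EW8. Red points lie above the line of equal response and blue points below it, MMP1 and FLNC being farthest up and BIRC3 and LAMA4 far to the lower right.

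Genes with the largest differences were named by a fixed rule from those above the floor in all groups. FLNC, the actin cross-linker filamin C, headed those with the larger fold in TC71. In EW8 its vehicle libraries were at 249, 277 and 283 CPM and its doxycycline libraries at 2600, 2450 and 2180 CPM. The TC71 libraries held 0.115, 0.322 and 0.155 CPM under vehicle and 529, 578 and 504 CPM under doxycycline. No groups overlapped, the level after doxycycline was still lower in TC71, and the fold was nonetheless larger there by 8.18 ± 0.18 on the log2 scale (adjusted p = 5.15e-15). S100A2, a calcium-binding protein, went from 0.857, 0.981 and 1.92 to 10.1, 9.88 and 9.82 CPM in EW8. In TC71 it went from 0.172, 0.225 and 0.330 to 294, 306 and 279 CPM. It thus started lower and ended higher in TC71, a difference of 7.29 ± 0.32 (adjusted p = 1.63e-11).

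MMP1, the interstitial collagenase, is a classical AP-1 target. In EW8 it went from 0.541, 0.392 and 0.323 CPM to 63.9, 61.2 and 56.6 CPM. In TC71 the values were 0.229, 0.0322 and 0.155 CPM, then 974, 905 and 949 CPM. Both lines responded strongly, and the TC71 response was larger by 5.57 ± 0.39 (adjusted p = 9.32e-09). KCNAB1, a potassium channel beta subunit, showed a response in 1 line from an equal start. EW8 held 1.71, 1.59 and 0.862 CPM under vehicle and 2.85, 1.7 and 1.96 CPM under doxycycline. TC71 held 1.39, 1.26 and 1.75 CPM, then 87.5, 86.2 and 87.3 CPM. Vehicle libraries overlapped between the lines, and the difference was 5.22 ± 0.3 (adjusted p = 7.06e-10). The remaining genes of this set were AHNAK2, a large scaffold protein (5.89), PTPN22, a tyrosine phosphatase (5.52), TNFRSF25, a death-domain receptor (5.46), and GNAO1, a G protein alpha subunit (5.09). The size was poorly fixed for the last of these: under the alternatives run TNFRSF25 ranged from 4.73 to 9.88 and GNAO1 from 4.42 to 10.31. FLNC, AHNAK2, MMP1, PTPN22, TNFRSF25, KCNAB1 and GNAO1 each overlap an annotated gene on the opposite strand, and strand was not used in counting, so reads of those neighbors cannot be told apart from theirs.

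On the EW8 side the first gene was BIRC3, which encodes the ubiquitin ligase cIAP2 and is a standard NF-kB target. EW8 held 0.0902, 0.349 and 0.180 CPM under vehicle and 15.7, 14.1 and 14.4 CPM under doxycycline. TC71 held 1.2, 1.48 and 1.4 CPM under vehicle and 0.945, 1.24 and 1.73 CPM under doxycycline. The TC71 groups overlapped, and the difference was -6.2 ± 0.41 (adjusted p = 4.12e-09). CCR7, a lymphoid homing receptor for chemokines, went from 0.767, 0.872 and 0.790 to 34.6, 40 and 37.3 CPM in EW8. It was at 0.191, 0.225 and 0.0776 CPM and then 0.533, 0.0478 and 0 CPM in TC71, again overlapping, and the difference was -5.35 ± 0.85 (adjusted p = 0.000171). With TC71 so near the floor, the CCR7 difference ranged from -8.25 to -4.75 under the alternatives run. LPXN, the focal adhesion protein leupaxin, started level in the lines, at 1.26, 1.22 and 1.74 CPM in EW8 and 1.36, 1.61 and 2 CPM in TC71. It reached 58.1, 56.2 and 55.8 CPM in EW8 and 4.05, 4.04 and 3.41 CPM in TC71. The difference was -4.1 ± 0.22 (adjusted p = 2.5e-10).

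For other genes of the EW8 set the TC71 vehicle level was the higher. NRIP1, a nuclear receptor corepressor, was at 0.0902, 0.0436 and 0.269 CPM in EW8 vehicle and 26.5, 30.3 and 30.3 CPM in TC71 vehicle. With doxycycline it reached 14.1, 14 and 12.3 CPM in EW8 and 89.6, 89.9 and 92 CPM in TC71. The EW8 fold was larger, by 4.89 on the log2 scale, while the added level was larger in TC71. GJA5, a gap junction connexin (-4.61), and DGKG, a diacylglycerol kinase (-3.87), also began higher in TC71. DGKI, another diacylglycerol kinase, differed by -4.51 from vehicle levels that overlapped. HOXB9, a homeobox factor of posterior identity, differed by -3.88, and its TC71 vehicle libraries were at 5.46, 28.8 and 31.5 CPM, the low value being the library that stood apart. It did not pass with limma-voom (-3.49, adjusted p = 0.264).

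**Figure D2:**
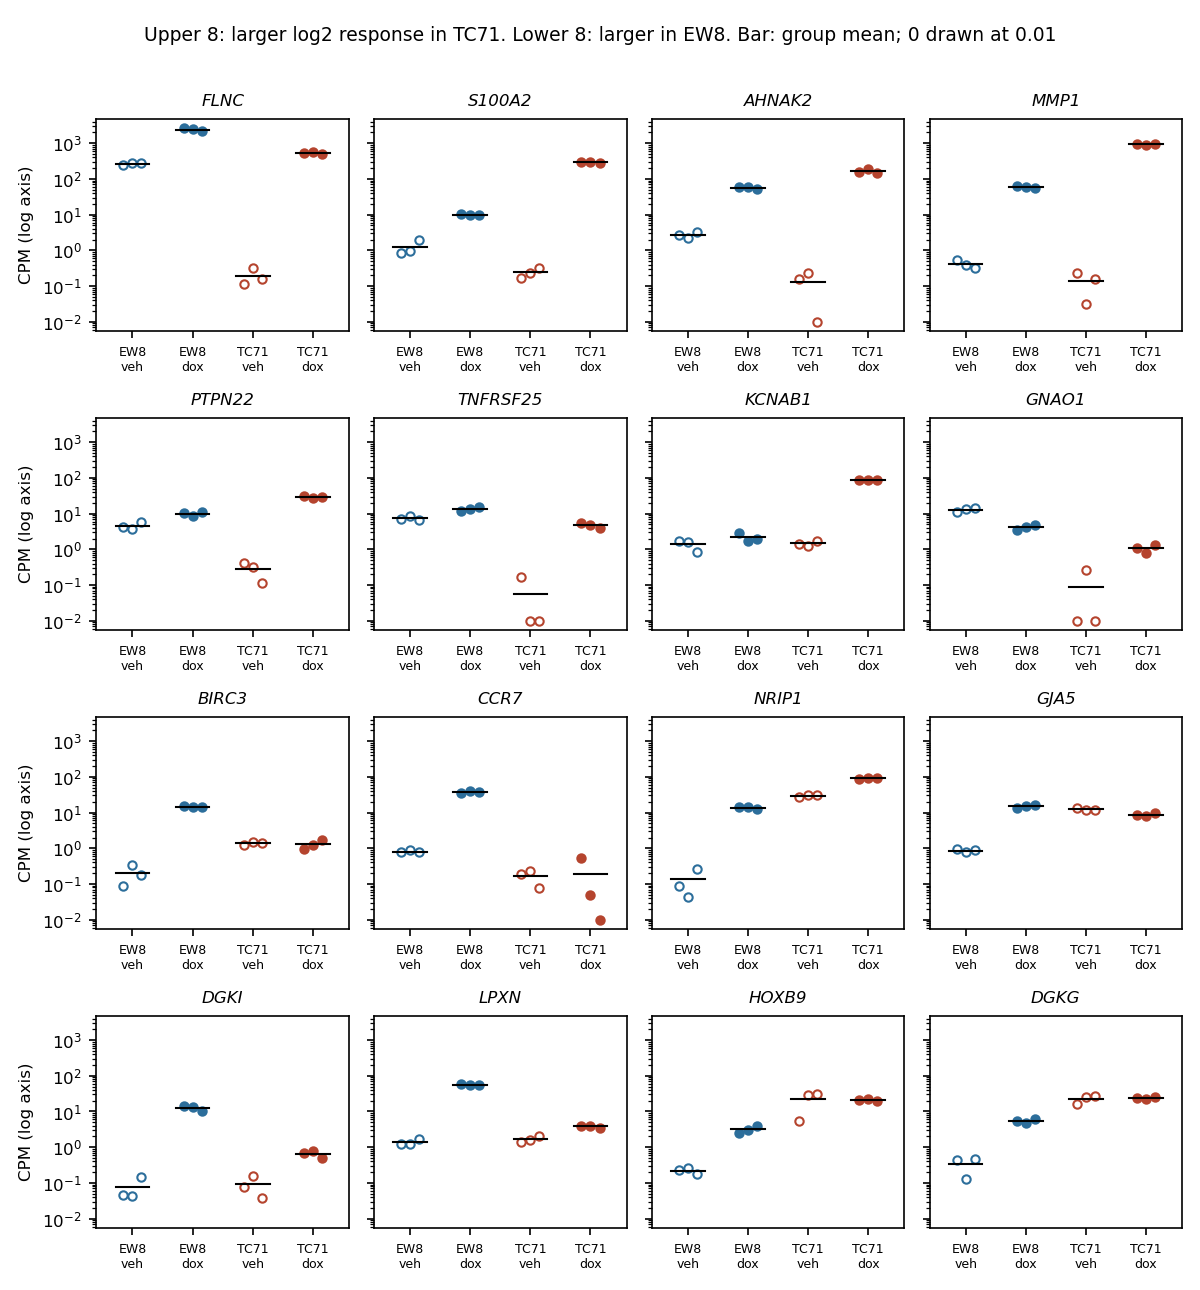
CPM in each library (log axis, 0 drawn at 0.01) for the 8 genes with the largest difference toward TC71 (upper panels) and the 8 toward EW8 (lower panels). Open circles are vehicle and filled circles doxycycline, EW8 in blue and TC71 in red, and bars are group means. KCNAB1 and LPXN start level in the lines and part after doxycycline, whereas FLNC and NRIP1 start far apart.

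Promoter sequences are shown by a fixed rule for the first 2 genes of each set, where they matched the promoter table, and for FN1. The matching genes were FLNC and S100A2 toward TC71 and BIRC3 toward EW8, CCR7 having no entry. Each is the 300 bases from 250 before to 50 after the RefSeq start site (GRCh38.p14), written 5′ to 3′ on the gene's strand. Capitals mark matches to 3 motifs searched on both strands: the AP-1 element TGANTCA, the CRE element TGACGTCA bound by Jun and ATF dimers, and the NF-kB consensus. FLNC lies at chr7:128830156-128830455 on the plus strand, S100A2 at chr1:153565795-153566094 on the minus strand, BIRC3 at chr11:102317234-102317533 on the plus strand and FN1 at chr2:215436019-215436318 on the minus strand.
FLNC: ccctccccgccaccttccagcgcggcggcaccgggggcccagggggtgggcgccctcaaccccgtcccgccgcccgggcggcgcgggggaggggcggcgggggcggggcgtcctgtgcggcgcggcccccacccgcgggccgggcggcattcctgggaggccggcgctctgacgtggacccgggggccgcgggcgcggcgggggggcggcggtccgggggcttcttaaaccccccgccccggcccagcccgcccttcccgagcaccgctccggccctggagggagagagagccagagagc
S100A2: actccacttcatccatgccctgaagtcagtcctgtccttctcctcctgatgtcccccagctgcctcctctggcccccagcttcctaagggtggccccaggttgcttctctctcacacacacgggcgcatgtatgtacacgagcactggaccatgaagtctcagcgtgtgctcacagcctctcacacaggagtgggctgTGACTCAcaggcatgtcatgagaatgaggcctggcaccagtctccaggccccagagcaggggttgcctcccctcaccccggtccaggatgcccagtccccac
BIRC3: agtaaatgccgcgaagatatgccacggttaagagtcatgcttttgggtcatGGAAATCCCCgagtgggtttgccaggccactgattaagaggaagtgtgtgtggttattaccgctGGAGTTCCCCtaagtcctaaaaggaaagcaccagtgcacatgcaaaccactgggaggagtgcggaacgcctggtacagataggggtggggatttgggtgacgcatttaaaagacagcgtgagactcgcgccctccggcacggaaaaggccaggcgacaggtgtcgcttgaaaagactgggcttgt
FN1: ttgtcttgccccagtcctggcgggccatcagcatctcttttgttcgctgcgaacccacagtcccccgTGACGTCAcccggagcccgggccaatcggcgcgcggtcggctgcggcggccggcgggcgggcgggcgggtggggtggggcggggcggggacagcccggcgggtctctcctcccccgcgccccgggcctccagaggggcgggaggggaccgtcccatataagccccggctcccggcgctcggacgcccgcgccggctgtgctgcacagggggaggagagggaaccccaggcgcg
The FLNC window held none of these letters. S100A2 held an AP-1 element beginning 52 bases before the start site, BIRC3 held 2 NF-kB matches beginning 199 and 135 bases before it, and FN1 held a CRE beginning 183 bases before it. Over all 27195 promoters of the table the AP-1 letters occurred in 7.73%, the CRE in 1.98% and the NF-kB consensus in 5.73%, and over the 12345 of tested genes in 4.89%, 3.07% and 6.73%. Among the promoters of called genes, the AP-1 letters occurred in 8.69% of 610 larger in TC71 and 9.39% of 362 larger in EW8. For the CRE the shares were 2.3% and 0.829%, and for the NF-kB consensus 7.54% and 10.8%. These are counts of letters in a short window and show neither a bound site nor a cause.

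Gene classes were read as the number of members called in each direction beside the 4.18% and 2.87% of all tested genes. Of 39 collagens tested, 12 responded more in TC71 (9 of them with no group at the floor) and 4 in EW8 (2 with none), and the median difference was 0.8, or 0.48 with floored groups set to the floor, against 0.03 for all genes. Type VI collagen, a microfibril-forming matrix component, was among them (these collagen genes were picked after their values were seen). COL6A2 stood at 121, 146 and 138 CPM under vehicle and 276, 274 and 244 CPM under doxycycline in EW8. The TC71 values were 7.1, 11.3 and 11 CPM, then 170, 189 and 174 CPM. The lines did not overlap in either condition, EW8 being higher in both, and the TC71 response was larger by 3.21 ± 0.16 (adjusted p = 1.29e-10). COL6A1 and COL6A3 differed by 2.75 and 2.47. For COL5A1, a fibril-nucleating chain, the 6 EW8 libraries overlapped between conditions at 125 to 141 CPM, while TC71 went from 8.85 to 11.8 CPM with vehicle to 87.6 to 98.2 CPM with doxycycline, a difference of 3.26 ± 0.12. COL1A1, the main chain of type I collagen, had overlapping vehicle groups at 20 to 30.6 CPM and reached 87.6 to 96.8 CPM in TC71 alone, against 31.2 to 33.8 CPM in EW8 (1.66 ± 0.16). The rule for named genes gave COL4A2, COL15A1, COL6A6 and COL1A2, each with a group at the floor. COL15A1 had the larger response in EW8 (-7.24), and COL4A2, COL6A6 and COL1A2 had it in TC71. COL6A6 did not pass without TC71 doxycycline library 2 (2.93, adjusted p = 1). COL4A2, a basement membrane chain, averaged 63.5 CPM under vehicle and 111 CPM under doxycycline in EW8, against 0 and 0.674 CPM in TC71. Under vehicle 9 of the 39 collagens were called higher in TC71 and 22 higher in EW8, against 2446 and 3974 of the 21013 tested genes. After doxycycline 10 were called higher in TC71 and 15 higher in EW8, against 12.6% and 18.4% of all tested genes.

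Of 24 collagen-modifying enzymes, 6 responded more in TC71 and 0 in EW8 by edgeR, with a median difference of 0.58. Toward EW8, 1 had an unadjusted p under 0.05, 1 was called by DESeq2 and 0 by limma-voom. LOXL2, a lysyl oxidase that cross-links collagen, was at 22.2, 23.1 and 22 CPM and then 58.9, 61.9 and 59.1 CPM in EW8. It went from 5.73, 7.76 and 8.05 CPM to 267, 280 and 251 CPM in TC71. The order of the lines turned between conditions, with a difference of 3.79 ± 0.13 (adjusted p = 4.3e-13). BMP1, a procollagen protease, differed by 1.93. P3H2, a prolyl hydroxylase, went from a mean of 25.5 to 11.9 CPM in EW8 and from 4.42 to 6.38 CPM in TC71 (1.63). TGM2, a transglutaminase, went from 13.9 to 4.72 CPM in EW8 and stayed at 2.05 CPM in TC71 (1.57).

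Adhesive matrix proteins showed both directions. Of 36 fibronectin and matricellular genes, 10 responded more in TC71 (8 with no group at the floor) and 4 in EW8, around a median of 0.01 whose sign changed with the scaling. FN1, which encodes fibronectin, was at 41.1, 75.9 and 77.1 CPM in the TC71 vehicle libraries, the lowest being the library that stood apart, and at 764 to 808 CPM in EW8 vehicle. With doxycycline the lines were at 1830 to 2010 and 2240 to 2420 CPM, and the difference was 3.35 ± 0.21. ECM1, a secreted glycoprotein, differed by 3.14, and THBS2, a thrombospondin, by -3.09. Of 31 proteoglycan and hyaluronan genes, 8 responded more in TC71 (6 with no group at the floor) and 1 in EW8, with a median of 0.67. SDC1, the cell-surface proteoglycan syndecan-1, went from 8.82, 9.89 and 9.74 to 59.6, 52.7 and 49.6 CPM in EW8. It went from 1.03, 2.77 and 2.37 to 132, 146 and 121 CPM in TC71, a difference of 3.49. CSPG4, a chondroitin sulfate proteoglycan, differed by 4.9. The EW8 count was 2 without TC71 vehicle library 1 or TC71 doxycycline library 3. Of 18 laminin and basement membrane genes, 4 responded more in TC71 and 1 in EW8. LAMB3, a chain of laminin-332 (4.46), and the nidogens NID1 (3.04) and NID2 (1.85) were on the TC71 side. LAMA4, a laminin chain of vessel and mesenchymal basement membranes, differed by -6.07 and is described with the genes that moved in opposite directions.

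Of 23 matrix metalloproteinases and their TIMP inhibitors, 9 responded more in TC71 (6 with no group at the floor) and 1 in EW8, and the median was 1.05. The TC71 count was 5 without the first TC71 vehicle library, when the EW8 count was 2, and 5 without EW8 vehicle library 3. MMP2, which cleaves denatured and basement membrane collagen, was at 83.9, 94.1 and 94.9 CPM and then 222, 230 and 231 CPM in EW8. The TC71 values were 4.75, 5.51 and 4.5 CPM, then 84.3, 89.5 and 75.9 CPM, which overlapped the vehicle level of EW8. The difference was 2.75 ± 0.11 (MMP2 and TIMP2 were picked after their values were seen). TIMP2, its inhibitor and cofactor, differed by 2.6. TIMP4 was the member on the EW8 side (-3.23). Of 20 serpins and plasminogen activators, 4 responded more in TC71 and 5 in EW8, or 4 and 3 with no group at the floor. Of 30 ADAM and ADAMTS proteases, 2 responded more in TC71 and 3 in EW8, with a median of -0.1. SERPINE2, the thrombin inhibitor protease nexin-1, went from a mean of 24.9 to 551 CPM in EW8 and from 118 to 296 CPM in TC71 (-3.14).

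Of 12 S100 genes, 5 responded more in TC71 (4 with no group at the floor) and 1 in EW8, with a median of 1.55. Besides S100A2, S100A13 (2.02) and S100A4 (1.87) were among the former, and S100A10, the annexin A2 partner, was the latter (-2.4). Genes that EWS-FLI1 represses had 14 of 44 members larger in TC71 (13 with no group at the floor) and 4 larger in EW8, with a median of 0.49. The EW8 count was 7 without the first TC71 vehicle library. Of 46 genes that EWS-FLI1 activates, 0 were larger in TC71 and 3 in EW8 by edgeR, with a median of -0.03. Toward TC71, 10 had an unadjusted p under 0.05, and DESeq2 and limma-voom each called 0. Integrins, the receptors for these matrix proteins, had 3 of 25 members larger in TC71 and 0 in EW8, where 4 had an unadjusted p under 0.05 and DESeq2 and limma-voom called 0. The 3 were ITGA3, a laminin receptor subunit (1.49), ITGB5, a vitronectin receptor subunit (2.24), and the pseudogene ITGB1P1, whose reads may be shared with ITGB1. ITGB5 was at 147 to 164 CPM in all 6 EW8 libraries, where conditions overlapped, and went from 20.2 to 24.4 CPM with vehicle to 108 to 121 CPM with doxycycline in TC71. The named integrins were picked after their values were seen.

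**Figure D3:**
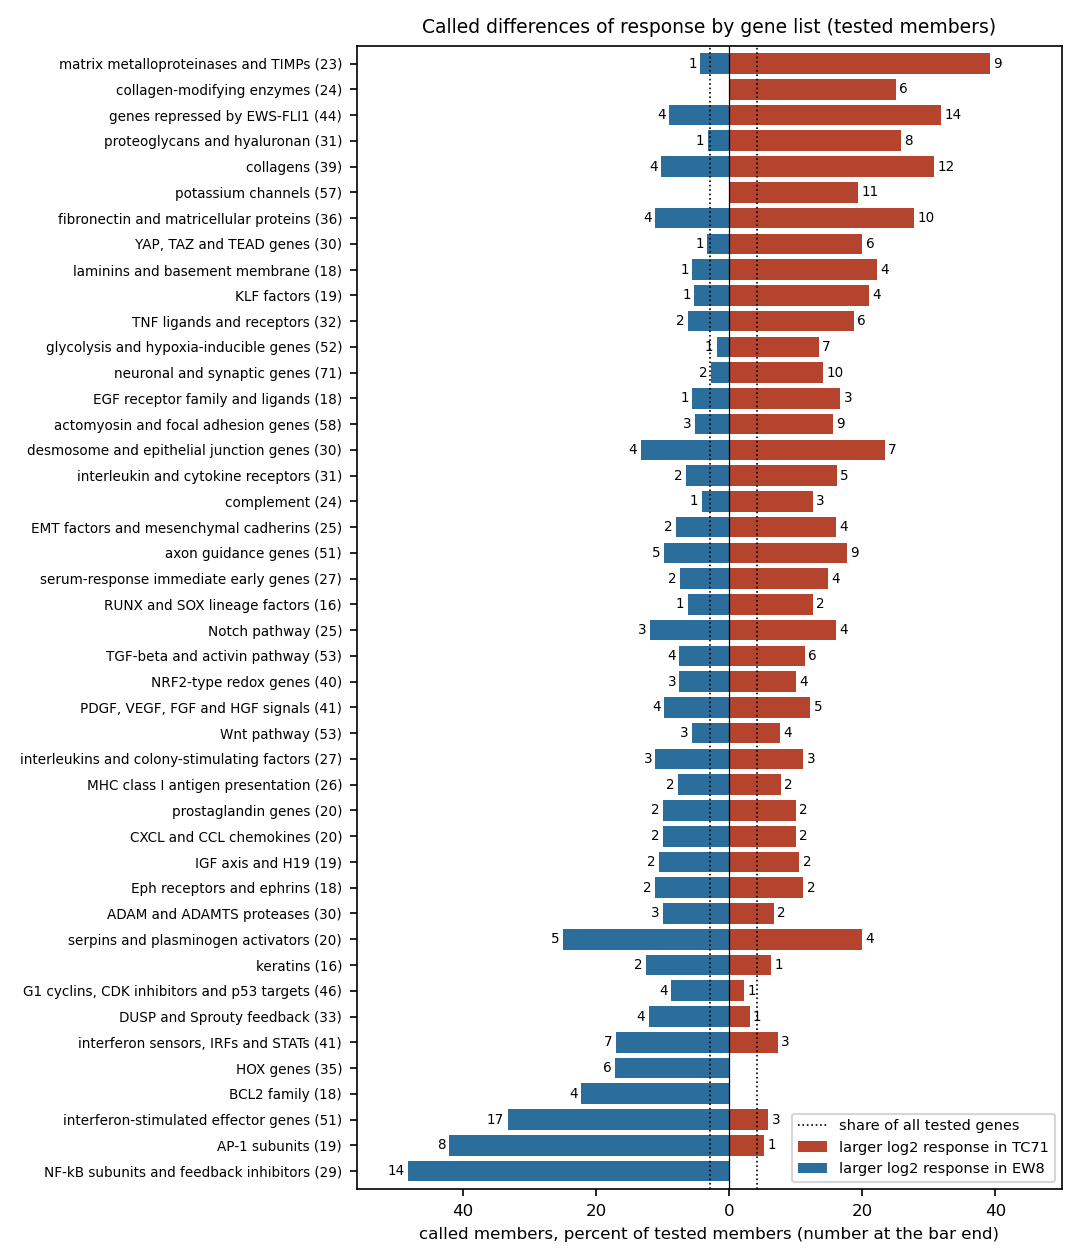
Percentage of tested members called with the larger response in TC71 (red) and in EW8 (blue) for the described gene lists with at least 15 tested members. Dotted lines mark the shares of all tested genes, 4.18% and 2.87%. The NF-kB list lies entirely on the EW8 side, and the matrix metalloproteinase, collagen and EWS-FLI1-repressed lists lie mostly on the TC71 side.

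NF-kB genes moved the other way. Of 29 subunits and feedback inhibitors of NF-kB, the inflammatory transcription factor, 14 responded more in EW8, all with no group at the floor, and 0 more in TC71, where 0 had an unadjusted p under 0.05 and DESeq2 and limma-voom called 0. The median difference was -1.23, between -1.31 and -1.23 under 4 scalings and -1.15 without the first TC71 vehicle library. TNFAIP3, the deubiquitinase A20 that ends NF-kB signaling, was at 4.96, 3.57 and 4.28 CPM and then 45.2, 47.9 and 41.2 CPM in EW8. TC71 held 11.4, 13 and 13 CPM, then 13.1, 16.1 and 15.6 CPM. TC71 thus began above EW8 and ended below it, a difference of -3.13 ± 0.17 (adjusted p = 4.43e-10).

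NFKBIA, the inhibitor IkB-alpha and itself a target of the factor, stood at 35.6, 42.9 and 38 CPM under vehicle and 194, 212 and 189 CPM under doxycycline in EW8. Its TC71 values were 57.6, 44 and 46.3 CPM, then 35.4, 34.2 and 36.3 CPM. Its difference was -2.83 ± 0.13 (adjusted p = 2.91e-11). NFKBIZ, the nuclear cofactor IkB-zeta, went from 2.41, 2.44 and 2.5 to 61.8, 72.9 and 62.3 CPM in EW8 and from 2.5, 1.16 and 1.42 to 7.71, 8.32 and 9.05 CPM in TC71. It responded in both lines from overlapping levels, with a difference of -2.42 ± 0.26. Among the subunits, RELB differed by -1.93 and NFKB1, the p105 precursor of p50, by -1.5 (both picked after their values were seen). NFKB1 was at 20 to 27.1 CPM and then 74.7 to 80.3 CPM in EW8, against 29 to 31.2 and 31.8 to 35.9 CPM in TC71. After doxycycline 20 of the 29 genes were called higher in EW8 than in TC71, where over all genes 18.4% were called higher in EW8 and 12.6% higher in TC71. The NF-kB consensus letters occurred in 12 of the 26 promoters of this list (46.2%).

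Other AP-1 subunits also leaned to EW8. Of 19 subunits and partners, 8 responded more in EW8 and 1, the induced FOS, in TC71, with a median of -0.61. FOSL2, which encodes Fra-2, was at 2.28, 2.22 and 2.26 CPM and then 110, 118 and 110 CPM in EW8. The TC71 values were 18.9, 14.1 and 12.8 CPM, then 130, 137 and 134 CPM. It ended higher in TC71, from a higher start, and the EW8 fold was larger by 2.5 on the log2 scale. FOSL1, which encodes Fra-1, differed by -1.31 and reached 94.4 to 106 CPM in EW8 and 74.6 to 86.4 CPM in TC71 (picked after its values were seen). MAFF, a small Maf protein without an activation domain, was at 2.23, 2.44 and 2.08 CPM and then 21.2, 24.7 and 21.4 CPM in EW8, against 1.79, 1.74 and 1.61 CPM and then 3.2, 2.1 and 3.16 CPM in TC71 (-2.6). MAFA, a large Maf protein, differed by -2.73. It fell in TC71, from 5.16, 4.44 and 4.62 CPM to 0.63, 0.478 and 0.364 CPM, and was at 19.8 to 26 CPM with vehicle and 15.1 to 15.6 CPM with doxycycline in EW8.

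Interferon-stimulated effector genes, which encode antiviral proteins, had 17 of 51 members larger in EW8 (16 with no group at the floor) and 3 larger in TC71, with a median of -0.77. In the lines taken separately, 42 were called higher with doxycycline in EW8 and 29 in TC71, against 11.4% and 12.3% of all tested genes. Between the lines, 26 of the 51 were called higher in EW8 and 2 in TC71 already under vehicle. After doxycycline these counts were 39 and 0, against 18.4% and 12.6% of all tested genes. IFIT1, which binds viral RNA, was at 6.86, 7.28 and 7.4 CPM and then 115, 106 and 92.9 CPM in EW8. TC71 held 14.4, 13.2 and 14.6 CPM, then 29.9, 28.9 and 28.3 CPM. IFIT1 thus began higher in TC71, the reverse of the 26 members called higher in EW8. It rose in both lines and more in EW8, by 2.81 on the log2 scale with SE 0.12 (IFIT1, IFI6, IRF1 and SP100 were picked after their values were seen). RSAD2, or viperin, differed by -3.34, OASL by -3.13 and IFI6 by -2.23. GBP5, a guanylate-binding protein, differed by -5.79, and it no longer passed without the first TC71 vehicle library (-1.72, adjusted p = 0.865). GBP3 (2.89) and SP100, a nuclear body protein (1.41), were on the TC71 side. Of 41 interferon sensors, IRF and STAT genes, 7 were larger in EW8, among them the transcription factor IRF1 (-1.4). A further 3 were larger in TC71, among them the receptor TLR2 (3.22).

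For cytokine genes the test of the difference and the levels after doxycycline often parted. Of 20 CXCL and CCL chemokines tested, 15 were called higher with doxycycline in EW8 and 4 in TC71, against 11.4% and 12.3% of all tested genes. Both vehicle groups were at the floor for 9 of the 20, which could enter the test only through doxycycline libraries. Between the lines, 9 were called higher in EW8 and 3 in TC71 under vehicle, and 17 and 2 after doxycycline. Only 2 were called for the difference toward EW8 and 2 toward TC71 by edgeR, with 7 toward EW8 by DESeq2 and 10 by limma-voom. A group at the floor was present for 16 of the 20. Leaving out libraries took the TC71 count to 1 in 9 of 12 cases, those of all 6 EW8 libraries, TC71 vehicle library 3 and TC71 doxycycline libraries 2 and 3. CXCL8, or interleukin-8, which attracts neutrophils, was at 0, 0.0436 and 0 CPM with vehicle in EW8 and at 0 in all 3 TC71 vehicle libraries. With doxycycline it was at 749, 890 and 775 CPM in EW8 and 2.47, 2.29 and 2.68 CPM in TC71. The level after doxycycline was 324-fold higher in EW8 (log2 difference of the levels -8.34 ± 0.11, adjusted p = 1.08e-17), while the difference of the fitted folds from 0 had an SE of 47.84 (adjusted p = 0.98 by edgeR), although DESeq2 (adjusted p = 0.000541) and limma-voom both called it. CXCL2, another neutrophil attractant, was called by the rule (adjusted p = 2.41e-05). It reached 84.2, 100 and 78.7 CPM in EW8 and 0, 0.287 and 0.319 CPM in TC71.

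Of 27 interleukins and colony-stimulating factors, 22 were called higher with doxycycline in EW8 and 16 in TC71. Both vehicle groups were at the floor for 10 of the 27, so the filter raised these counts too. Between the lines, 11 were called higher in EW8 and 0 in TC71 under vehicle, and 20 and 3 after doxycycline. For the difference of responses, 3 were called in each direction. Toward EW8 the count was 10 by DESeq2, 7 by limma-voom and 5 without the first TC71 vehicle library. IL1B, a master cytokine of inflammation, went from 4.1, 4.93 and 4.49 to 806, 951 and 766 CPM in EW8. In TC71 it went from 0.0764, 0 and 0 to 1.02, 1.62 and 0.774 CPM. The level after doxycycline was 738-fold higher in EW8, and the difference of the responses did not pass by edgeR (-2.13, adjusted p = 0.322) but did by DESeq2 (adjusted p = 0.0461). Without the first TC71 vehicle library its sign turned (1.19, adjusted p = 0.614). IL6, an acute-phase cytokine, was at 4.6, 6.28 and 5.32 CPM in doxycycline-treated EW8 and at 0 in the other 9 libraries, at least 37.1-fold higher than in doxycycline-treated TC71. Its difference of responses was not called by edgeR (adjusted p = 1) and was called by DESeq2 (adjusted p = 1.98e-05) and by limma-voom. CSF3, the granulocyte growth factor G-CSF, was at 18.5, 22.3 and 17 CPM there and at or under the floor elsewhere, at least 132-fold higher. IL1A was called (-3.18), as was TSLP, an epithelial alarm cytokine (-1.94). IL11, a fibroblast-active cytokine, went the other way, reaching a mean of 141 CPM in TC71 and 13.7 CPM in EW8 (4.47). CXCL8, IL1B, IL6 and CSF3 were picked after their values were seen.

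CXCL8, CXCL2, IL6 and CSF3 were among 499 tested genes for which both vehicle groups were at the floor. Of the 499, 445 were called higher in EW8, 332 in TC71 and 302 in both. Over all tested genes 11.4% were called higher in EW8 and 12.3% in TC71. A gene at the floor in both vehicle groups could enter the test only through its doxycycline libraries. The calls of higher response among the 499 were thus largely set by the filter. The difference of responses was called for 10 toward TC71 and 15 toward EW8, whereas the level after doxycycline was called higher in TC71 for 84 and in EW8 for 227. For 288 of these 311 the difference of responses was not called. The median SE of the difference was 2.482 for the 499 genes and 0.1866 for genes with no group at the floor. For such a gene a difference of responses that did not pass does not show that the lines responded alike. MMP10, the protease stromelysin-2, had the opposite order, with 863 CPM on average in TC71 and 33.2 CPM in EW8, 26.0-fold higher in TC71 (difference of responses 0.77, adjusted p = 0.781). TNFRSF9, the costimulatory receptor 4-1BB, averaged, after doxycycline, 219 CPM in EW8 and 3.62 CPM in TC71. MMP10 and TNFRSF9 were picked after their values were seen. MMP10, IL6, TNFAIP3, LOXL2 and TM4SF1 overlap an annotated gene on the opposite strand, and HOXB9, HOXC8 and DGKG one on their own strand, so their counts share the uncertainty named above. Opposite-strand overlaps also held for many other named genes, among them GJA5, DGKI, FOSL2, MAFF, COL5A1, MMP2, TIMP2, IFIT1, RSAD2, VIM and FAP. NRIP1, LAMA4 and VCL overlap annotated genes on both strands, and KRT8 and KRT18 overlap each other.

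Among called genes with a group at the floor, the fold from that group is a bound, and the fitted difference was mostly larger than that bound. The 212 such genes toward TC71 had a median fitted difference of 4.79 and of 1.43 with the floored groups set to the floor, and 135 of them still exceeded 1. For 46 it lay between 0 and 1 and for 31 it had the other sign. Toward EW8 the medians were -4.89 and -1.68, with 95 of 137 past the limit, 32 nearer to 0 and 10 of the other sign. EGFR, the epidermal growth factor receptor, is a gene whose sign was not fixed: it went from 7.4 to 49.7 CPM in EW8 and from 0 to 0.376 CPM in TC71, with a fitted difference of 4.47. TM4SF1, a membrane protein of migrating cells, was at or under the floor in both vehicle groups and reached 90.2 to 90.9 CPM in EW8 and 196 to 202 CPM in TC71, at least 670-fold and 1710-fold higher. LRRC15, a membrane protein of stromal fibroblasts, reached 337 to 386 CPM in EW8 and 72.2 to 76.6 CPM in TC71. CDCP1, a surface substrate of Src kinases, reached a mean of 425 CPM in TC71 and 2.07 CPM in EW8. CDCP1 did not pass without the first EW8 vehicle library (2.76, adjusted p = 0.203). CACNA1A, a neuronal calcium channel subunit, went from 7.23 to 86.7 CPM in EW8 and was at 0.197 CPM in TC71 with doxycycline (-1.92), and it did not pass without the first or the third library of either TC71 group (-1.81 to -1.61).

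A gene was counted as moving in opposite directions when it was called in both lines with opposite signs and for the difference, which held for 27 genes, 11 higher in TC71 and lower in EW8 and 16 the reverse. Of these, 12 had no group at the floor, 6 in each direction, and without the first TC71 vehicle library the count was 35. With no fold limit 366 genes had opposite signs, and 6 were counted when every library had to hold 10 counts. The named genes are the 6 that also reached 10 CPM in a group. EGR1, an immediate early zinc finger factor induced by growth signals, was at 7.44, 11 and 6.22 CPM and then 21.9, 28 and 21.1 CPM in EW8. TC71 held 29, 49.6 and 47.8 CPM, the low value again in the library that stood apart, then 16.2, 18.2 and 14.3 CPM. It rose in EW8 and fell in TC71, and the difference was -2.91 ± 0.29 (adjusted p = 6.88e-07). ALDH1A1, a retinaldehyde dehydrogenase, went from 264, 252 and 244 to 554, 556 and 513 CPM in EW8. It went from 105, 94.4 and 99.7 to 38.9, 37.7 and 34.9 CPM in TC71. No groups overlapped, with a difference of -2.51 ± 0.08 (adjusted p = 4.3e-13), and the line that began higher moved further up.

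The other 4 rose in TC71 and fell in EW8. TNFRSF11A, the osteoclast receptor RANK, went from 0.947, 1 and 1.51 to 0.394, 0.356 and 0.274 CPM in EW8. It went from 3.23, 4.61 and 4.04 to 10.6, 10.4 and 10.6 CPM in TC71, so the lines moved further apart (3.15 ± 0.33). CD247, the T-cell receptor zeta chain, did the same, from 0.271 to 0.431 CPM down to 0.0790 to 0.228 CPM in EW8 and from 6.6 to 8.04 CPM up to 13.4 to 15.9 CPM in TC71 (2.36 ± 0.41). TMEM71, a transmembrane protein, was at 106, 110 and 104 CPM and then 45.7, 47.3 and 54.6 CPM in EW8. TC71 held 0.115, 0.483 and 0.660 CPM, then 3.59, 1.89 and 2.82 CPM (3.82 ± 0.34). GNAO1 went from 11.1, 13.5 and 14 to 3.47, 4.29 and 4.73 CPM in EW8 and from 0, 0.258 and 0 to 1.07, 0.812 and 1.32 CPM in TC71. For TMEM71 and GNAO1 the lines moved toward each other, and EW8 stayed higher. LAMA4, below 10 CPM, went from 0.361, 0.0436 and 0.503 to 8.32, 9.82 and 9.39 CPM in EW8 and from 3.34, 4.78 and 6.29 to 1.75, 2.49 and 2.05 CPM in TC71. Of the 27 genes, 16 rose in the line with the lower vehicle mean.

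**Figure D4:**
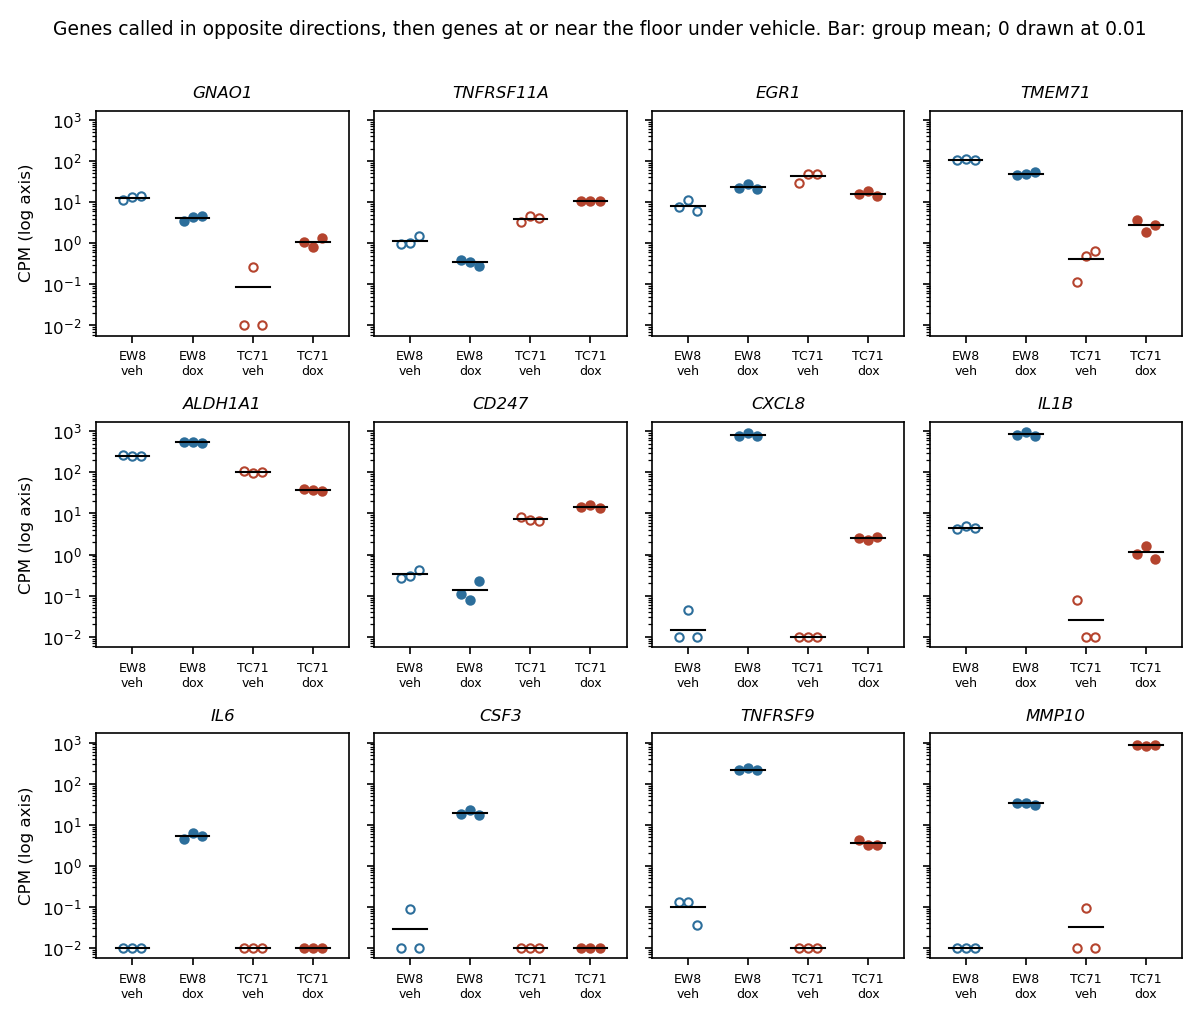
CPM in each library (log axis, 0 drawn at 0.01) for the 6 genes called in opposite directions and for CXCL8, IL1B, IL6, CSF3, TNFRSF9 and MMP10. Open circles are vehicle and filled circles doxycycline, EW8 in blue and TC71 in red, and bars are group means. In the first 6 panels the change between open and filled circles has opposite signs in the lines, and in the cytokine panels the EW8 doxycycline libraries stand far above those of TC71.

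The relation to vehicle level was described on the genes with no group at the floor. The vehicle libraries enter both the starting level and the response, so noise in them moves both, and no test is given. Of the 666 genes larger in TC71, 60.06% were more than 2-fold higher in EW8 with vehicle (15.96% of all such tested genes), 7.357% were higher in TC71 (12.06%) and 32.58% lay within 2-fold (71.98%). Their median CPM with vehicle was 7.998 in EW8 and 2.412 in TC71. After doxycycline the medians were 10.89 and 12.1, and 41.44% of the genes lay within 2-fold (72.51% of all such tested genes). A further 33.78% were higher in TC71 (12.72%) and 24.77% higher in EW8 (14.77%). For most of these genes TC71 thus started lower, and after induction neither line was higher throughout.

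The 466 genes larger in EW8 mirrored this in part. With vehicle 48.28% were more than 2-fold higher in TC71, 37.77% lay within 2-fold and 13.95% were higher in EW8, with medians of 3.039 CPM in EW8 and 7.995 CPM in TC71. After doxycycline the medians were 11.14 and 8.336 CPM, with 44.64% higher in EW8 (14.77% of all tested genes with no group at the floor), 34.33% within 2-fold (72.51%) and 21.03% higher in TC71 (12.72%). A larger fold was not always a larger gain in level. The CPM gained was larger in EW8 for 101 of the 666 genes (15.17%) whose fold was larger in TC71, as for FLNC (2140 against 537 CPM gained), and larger in TC71 for 62 of the 466 whose fold was larger in EW8, as for NRIP1. Over all tested genes with no group at the floor, the gain was larger in EW8 for 45.58%.

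**Figure D5:**
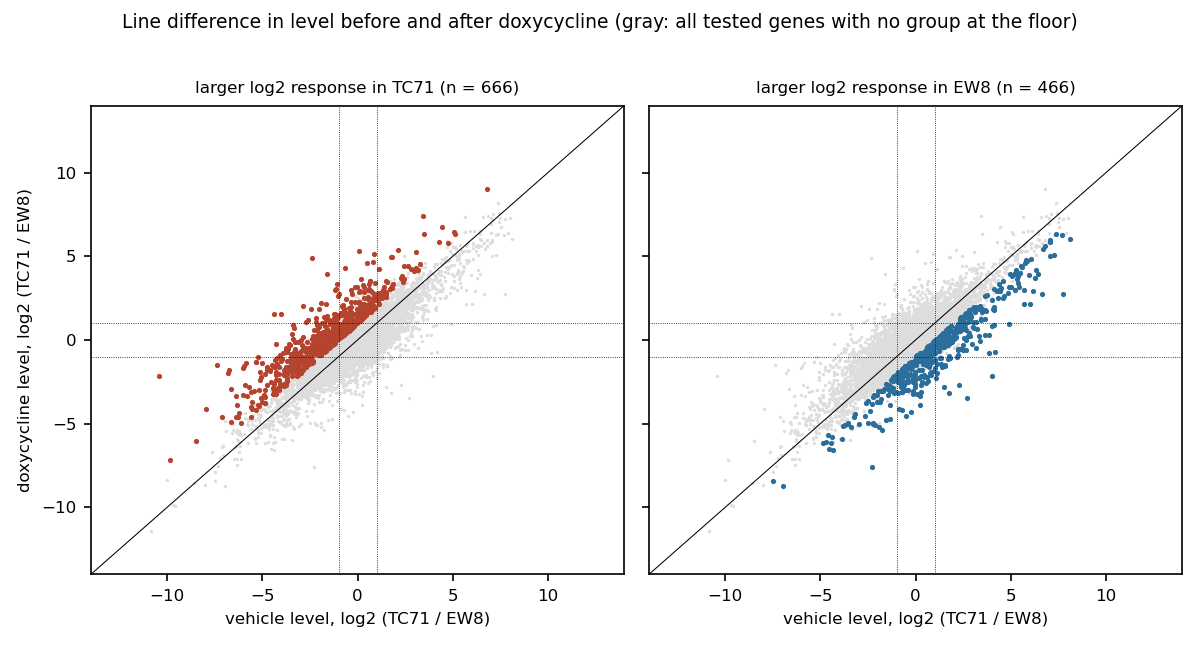
Log2 ratio of TC71 to EW8 with vehicle (x axis) against the same ratio with doxycycline (y axis), for the 666 genes with the larger response in TC71 (left, red) and the 466 with the larger response in EW8 (right, blue), over all tested genes with no group at the floor (gray). Dotted lines mark 2-fold and the diagonal marks an unchanged ratio. Red points lie above the diagonal and mostly left of 0, since 60.06% were over 2-fold higher in EW8 with vehicle, and blue points lie below it.

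Cytoskeletal and neural classes differed among themselves. Of 14 neural and muscle intermediate filament genes, 2 were larger in TC71 (1 without EW8 vehicle library 1) and 2 in EW8. VIM, which encodes vimentin and is among the genes followed by immunoblot, averaged 122 and 1080 CPM in EW8 and 529 and 1680 CPM in TC71 (-1.48). Of the other immunoblot genes, VCL, or vinculin, and FAP, a fibroblast protease, differed by 0.07 and -0.2 and did not pass (adjusted p = 0.583 and 0.671), and VCL changed sign without TC71 vehicle library 1 (-0.1). Of 16 keratins, 1 was larger in TC71 (2 without TC71 doxycycline library 2) and 2 in EW8, KRT8 (-2.45) and KRT18 (-1.98). Of 58 actomyosin and focal adhesion genes, 9 responded more in TC71 (7 with no group at the floor) and 3 in EW8. Of 57 potassium channel genes, 11 were larger in TC71 (7 with no group at the floor) and 0 in EW8 by edgeR. Toward EW8, 7 had an unadjusted p under 0.05, DESeq2 and limma-voom called 1 each, and the count was 3 without the first TC71 vehicle library and 1 without EW8 vehicle library 1 or 2 or TC71 doxycycline library 2 or 3. KCNN4, a calcium-activated channel, went from 0.0902, 0.174 and 0.503 to 6.35, 7.09 and 4.41 CPM in EW8 and from 0 in 3 libraries to 32.2, 36.5 and 29.5 CPM in TC71. Of 71 neuronal and synaptic genes, 10 were larger in TC71, all with no group at the floor, and 2 in EW8. The EW8 count was 5 without the second EW8 doxycycline library, 4 without TC71 vehicle library 3, 1 without TC71 doxycycline library 3 and 5 with upper-quartile scaling. MAP2, a dendritic microtubule protein, went from a mean of 1.48 to 2.34 CPM in EW8 and from 3.19 to 44.9 CPM in TC71 (3.16).

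Of 51 axon guidance genes, 9 were larger in TC71 and 5 in EW8, the latter being 8 without the first TC71 vehicle library. L1CAM, a neural adhesion molecule, went from 8.72 to 14.2 CPM in EW8 and from 0.446 to 12.1 CPM in TC71 (4). NRP1, the neuropilin coreceptor for semaphorins and VEGF, was at a mean of 37.4 and 41.5 CPM in EW8 and went from 19 to 280 CPM in TC71 (3.73). Of 52 glycolysis and hypoxia-inducible genes, 7 were larger in TC71, among them EPAS1, which encodes HIF-2-alpha (3.62), and 1 in EW8. Of 30 YAP, TAZ and TEAD genes, 6 were larger in TC71, among them AXL, a receptor tyrosine kinase (3.24), and 1 in EW8, the coagulation initiator F3 (-1.95). Desmosome and epithelial junction genes had 7 of 30 larger in TC71 (5 with no group at the floor) and 4 in EW8.

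Endothelial markers, a class foreign to the labelled cell type, summed to 23.3 to 24.7 CPM in EW8 vehicle and 4.83 to 6.53 CPM in TC71 vehicle, where ERG, PECAM1, ROBO4, TEK, TIE1 and VWF were at 0. With doxycycline the 11 genes summed to 71.5 to 78.9 CPM in EW8 and 74.3 to 75.7 CPM in TC71. PECAM1, the adhesion molecule CD31, went from 7.07 to 37.5 CPM on average in EW8 and from 0 to 3.66 CPM in TC71. Of the 11 genes 2 were called, PECAM1 and the receptor TIE1, both larger in TC71 and both with a group at the floor, and 1 when any single library other than EW8 vehicle 1 or 2 was left out. These are transcript levels, and whether any endothelial cells were present was not tested.

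Signaling classes were divided. Of 32 TNF ligands and receptors, 6 were larger in TC71 and 2 in EW8. TNFRSF8, or CD30, went from a mean of 0.103 to 7.58 CPM in TC71 and from 0.837 to 1.88 CPM in EW8 (4.92). Of 53 TGF-beta and activin genes, 6 were larger in TC71 and 4 in EW8, among the latter PMEPA1, a feedback inhibitor of the pathway, which went from 0.101 to 8.88 CPM in EW8 and from 1.44 to 8.59 CPM in TC71 (-3.74). Of 18 EGF receptor and ligand genes, 3 were larger in TC71 and 1 in EW8, or 1 and 1 with no group at the floor. HBEGF, a ligand, reached 64.5 CPM in TC71 and 30.1 CPM in EW8 (2.35), and TGFA, another, had the larger fold in EW8 (-1.49). Of 41 PDGF, VEGF, FGF and HGF genes, 5 were larger in TC71 and 4 in EW8, and of 53 Wnt pathway genes 4 and 3. Of 25 EMT factors and mesenchymal cadherins, 4 were larger in TC71 and 2 in EW8. PRRX1, a mesenchymal homeobox factor, averaged 24.6 and 21.9 CPM in EW8 and went from 15.2 to 70.9 CPM in TC71 (2.39), whereas SNAI2, or Slug, went from 1.15 to 12.2 CPM in EW8 and from 8.32 to 14.2 CPM in TC71 (-2.64).

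Of 33 DUSP and Sprouty genes, which damp MAP kinase signaling, 1 was larger in TC71 and 4 in EW8 (7 without EW8 doxycycline library 2). Without TC71 vehicle library 3 or TC71 doxycycline library 3 the TC71 count was 2. Of 46 cyclin, CDK inhibitor and p53 target genes, 1 was larger in TC71 and 4 in EW8 (7 without TC71 vehicle library 1), and the TC71 count was 2 without EW8 vehicle, TC71 vehicle or TC71 doxycycline library 2. CDKN1A, the cell cycle inhibitor p21, went from 22 to 202 CPM in EW8 and from 28.9 to 94.7 CPM in TC71 (-1.49), with 16 CPM in TC71 vehicle library 1 and 35.2 and 35.5 CPM in the other vehicle libraries. Of 40 NRF2-type redox genes, 4 were larger in TC71 and 3 in EW8 (5 without TC71 vehicle library 1). HMOX1, the heme-degrading enzyme, averaged 25.5 and 27.6 CPM in EW8 and went from 8.04 to 62.7 CPM in TC71 (2.85).

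Of 35 HOX genes, 0 were larger in TC71 by edgeR, where 0 had an unadjusted p under 0.05 and DESeq2 and limma-voom called 0, and 6 were larger in EW8 (5 with no group at the floor), with a median of -0.46. Besides HOXB9 they included HOXC8 (-1.45). Of 18 BCL2 family genes, 4 were larger in EW8 and 0 in TC71, where 1 had an unadjusted p under 0.05 and DESeq2 and limma-voom called 0. BCL2, which blocks apoptosis, went from a mean of 8.32 to 5.51 CPM in EW8 and from 20.9 to 6.05 CPM in TC71 (-1.2). PMAIP1, the apoptosis-promoting member NOXA, went from 19.2 to 44.4 CPM in EW8 and was at 33.9 and 29.6 CPM in TC71 (-1.4). Of 19 IGF axis genes, 2 were larger in TC71 and 2 in EW8. IGF1R, the growth factor receptor on which Ewing cells depend, went from 33.3 to 173 CPM in EW8 and from 109 to 141 CPM in TC71 (-2).

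Growth and housekeeping classes showed shifts under the 2-fold limit. For 87 cytosolic ribosomal protein genes, 51 DNA replication genes and 70 mitosis genes edgeR and DESeq2 each called 0. Their median log2 responses were -0.12, -0.56 and -0.39 in EW8 and -0.38, -0.81 and -0.33 in TC71. By the median these classes thus fell in both lines. For ribosomal protein and replication genes, the median difference toward EW8 was a deeper fall in TC71, not a rise in EW8. At an unadjusted p under 0.05 the counts toward EW8 were 58, 28 and 6, and toward TC71 1, 4 and 10. Without the fold limit 37 ribosomal protein genes differed toward EW8 and 1 toward TC71, with a median of -0.24, and 77 and 1 without the first TC71 vehicle library. For replication genes these counts were 20 and 1, median -0.21, and 33 and 1 without that library. For mitosis genes 2 differed toward EW8 and 6 toward TC71, and the order turned to 13 and 7 without that library and to 7 and 3 with upper-quartile scaling. Of 38 cholesterol and fatty acid synthesis genes, 4 were larger in TC71 and 0 in EW8, where 0 had an unadjusted p under 0.05 and DESeq2 and limma-voom called 0, and without the fold limit 22 differed toward TC71 and 0 toward EW8 (median 0.46), or 17 and 2 without the first TC71 vehicle library (median 0.21). With all libraries their median log2 response was -0.26 in EW8 and 0.1 in TC71.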

How the data were processed

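RNA sequencing measured polyadenylated RNA in 12 libraries, 3 per line and treatment, grouped by their labels. The deposited values are whole-number counts per gene, not normalized. The authors checked reads with FastQC, aligned them with STAR to hg38 and counted them with featureCounts 2.0.1 over GENCODE release 29 exons. Per the file headers the counter ran without its options for pairs, strand, multi-mapped or multi-gene reads, so both mates were counted, and paralogs and overlapping genes are uncertain. The authors tested with DESeq2.

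From these counts, genes were filtered with filterByExpr, which kept 21013 genes with 99.95% of all counts, scaled by TMM and fitted with edgeR 4.0.16 in R 4.3.3 with 4 group means and no block. Adjustment of p-values was by Benjamini-Hochberg over the whole table of tested genes. DESeq2 1.42.0, limma-voom (limma 3.58.1), other scalings, filters, priors, limits and leaving out each library were alternatives. The script was tested on simulated counts. The 66 gene lists were written from general knowledge, and those described in full had 5 or more called members or a called share over 2 times that of all genes. Members and lists were chosen with earlier results of these data known.

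Named genes were JUN, FOS and the immunoblot genes. Added to these were the 8 largest differences on each side with no group at the floor and a mean of at least 10 CPM in a group, and up to 8 called in opposite directions under the same limits. For genes with a group at the floor the 4 most abundant on each side were named, and for each described list up to 4 called members with the largest difference. Genes outside this rule are marked where they appear. Genes on chromosome Y, XIST and clone names were left out. Of the gene symbols, 99.12% were matched by identifier to GENCODE release 44. Levels below 6 counts in every library of a group were replaced by that floor for bounds, which cover counting error only. Results for some genes are not reported here.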

Additional observations from a re-analysis of the deposited data

Results flagged for a closer look

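Responses that differed between the lines by the test of the difference itself were the 878 genes larger in TC71, the 603 larger in EW8 and the 27 called in opposite directions. Among named genes of the last kind, the difference on the log2 scale was 5.09 for GNAO1, 3.15 for TNFRSF11A, 3.82 for TMEM71 and 2.36 for CD247, which were higher with doxycycline in TC71 and lower in EW8. It was -2.91 for EGR1, -2.51 for ALDH1A1, -6.07 for LAMA4, -3.52 for CXCL11 and -4.03 for DUSP4, which went the other way. CXCL11, an interferon-induced chemokine, and DUSP4, a MAP kinase phosphatase, were at the floor in doxycycline-treated TC71, so their TC71 folds are bounds.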

How the results depend on the processing

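Counts are given as genes larger in TC71, larger in EW8 and opposite, against 878, 603 and 27. They were 826, 641 and 27 with median-ratio scaling, 791, 681 and 27 with upper-quartile scaling, 923, 757 and 35 with DESeq2 and 841, 603 and 24 with limma-voom. Requiring 10 counts in every library tests fewer genes and gave 484, 482 and 6. Without a fold limit the counts were 2572, 1485 and 366, and with a log2 limit of 2 they were 434, 271 and 6. With the replicate number as a block they were 843, 568 and 26. Deviations of same-numbered libraries correlated between -0.028 and 0.01 within lines, and 1 of 6 libraries correlated best with its own number, so the numbers were not taken as pairs. Between the lines most same-numbered libraries did correlate best with each other, though at no more than 0.018. Leaving out 1 library at a time gave 689 to 898, 546 to 846 and 23 to 36.

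No called named gene changed sign under the alternatives run. Of those not called, IL1B (1.19) and MT-ND1 (0.02) did without TC71 vehicle library 1, KCNN3 (0.4) without TC71 vehicle library 2, and VCL (-0.1 to 0.1) under several. KCNN3, not called with all libraries, was called without TC71 vehicle library 1 and when genes were not filtered. In all, 170 of the 217 called named genes stayed called in every alternative that tested them. The median of all differences moved from 0.035 to -0.042 between scalings, and the medians of lists near 0 changed sign with it. With 3 libraries a group and few counts in TC71 vehicle, a difference of folds is poorly measured for genes at the floor.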
